A study of Homo sapiens with 30 samples.

Results

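A set of 9 genes of the tight junction were followed in 5637 cells, a human bladder carcinoma line of epithelial origin. They are listed by name, and the list itself uses no measured value: the claudins CLDN1, CLDN3, CLDN4, CLDN7 and CLDN12, the MARVEL proteins OCLN and MARVELD2, the adhesion molecule F11R and the scaffold TJP1. These 9 genes were found among 60612 genes of a knockout table and among 56303 genes of both an overexpression table and a knockdown table. The tables hold read counts per gene of 30 RNA-seq libraries, 3 in each of 10 groups.

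The knockout table compares cells with RBPMS, an RNA-binding protein, knocked out (KO1 and KO2) with their own wild type groups (WT1 and WT2). The overexpression table holds 5637 cells with the isoform ANKRD10-1 or ANKRD10-2 of the gene ANKRD10, or with the empty Vector. The knockdown table holds 5637 cells given siANKRD10-1 or siANKRD10-2, siRNAs against these isoforms, or the control siNC. The knockouts were made with 2 sgRNAs, and the study states that its edited cells went through expansion from single clones, so each knockout group may stand for 1 clone. The study's text places the overexpression of ANKRD10-1 and the knockdown with siANKRD10-2 in cells without RBPMS, while the labels name 5637 cells alone, so the 2 sources differ on the background of these groups. Nothing in the labels says that the 3 libraries of a group came from separate cultures, and the p-values then measure only the spread between these libraries, which may be technical. In RNA from whole cultures, fewer cells expressing a gene and less RNA per cell cannot be told apart.

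Tight junctions seal the space between neighbouring epithelial cells near their apical side. Claudins span the membrane and form the sealing strands and, for some members, ion-selective pores. OCLN and MARVELD2 (tricellulin) are membrane proteins of the MARVEL family, the latter concentrated at corners shared by several cells, F11R (JAM-A) is an immunoglobulin-like adhesion molecule, and TJP1 (ZO-1) is a scaffold that ties these proteins to the actin cytoskeleton. In the urothelium, which lines the bladder, they take part in the barrier against urine.

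Total counts ranged from 44593108 to 69723937 in the knockout table, from 31736779 to 47493499 in the overexpression table and from 28511029 to 32784584 in the knockdown table. Levels are given as CPM (counts scaled to a library size of 1000000) after TMM scaling within a table, and differences as log2 fold changes with their standard error (SE). Among counts of 1 to 20, the share of even numbers was 46.3% to 47.9% in the knockout libraries, 67.4% to 68.4% in the overexpression libraries and 70.1% to 75.9% in the knockdown libraries, and levels were not tested across the tables. RBPMS was at 38.9, 42.2 and 40.3 CPM in WT1 and at 15.2, 15.1 and 14.2 CPM in KO1 (log2 fold change −1.44, SE 0.07, edgeR adjusted p = 1.25e-07). It was at 44.5, 42.8 and 42.7 CPM in WT2 and at 20.5, 18.7 and 21.4 CPM in KO2 (−1.09, SE 0.059, edgeR adjusted p = 5.07e-08). In the groups whose background the sources give differently, RBPMS changed by −0.19 in ANKRD10-1 against Vector (95% interval −0.47 to 0.10), by 0.03 in siANKRD10-2 against siNC (−0.25 to 0.31) and by 0.14 in siANKRD10-2 against siANKRD10-1 (−0.13 to 0.41). ANKRD10, counted over all of its isoforms, changed by −1.18 in KO1, −0.76 in KO2, 0.67 in ANKRD10-1, 0.41 in ANKRD10-2, −0.24 in siANKRD10-1 and −0.25 in siANKRD10-2, each with an edgeR adjusted p under 0.05, and the counts do not show which isoform moved. The cells carried the epithelial markers CDH1, EPCAM, KRT5, KRT7, KRT8, KRT13, KRT18 and KRT19, which summed to between 2690 and 5620 CPM in a library. Of 11 markers of other cell types, the T cell gene CD3E was at 0 in 9 of the 10 groups, and the leukocyte gene PTPRC was at 0 in 6. At most 4 of the 11 were at 0 in a group, and the 11 summed to between 35.2 and 71.7 CPM in a library.

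The genes lie on 6 chromosomes of GRCh38. CLDN3 (ENSG00000165215, chr7:73768997-73770270) and CLDN4 (ENSG00000189143, chr7:73799542-73832693) are neighbours on chromosome 7, which also holds CLDN12 (ENSG00000157224, chr7:90383721-90513402). OCLN (ENSG00000197822, chr5:69492292-69558104) and MARVELD2 (ENSG00000152939, chr5:69415112-69444330) are neighbours on chromosome 5. CLDN1 (ENSG00000163347) lies at chr3:190305701-190322475, CLDN7 (ENSG00000181885) at chr17:7259903-7263983, F11R (ENSG00000158769) at chr1:160995211-161021348 and TJP1 (ENSG00000104067) at chr15:29699367-29968865. Some gene models overlap. In those of the overexpression and knockdown tables, F11R shares 1853 exon bases (36.6% of its own) on the same strand with RP11-544M22.13, and CLDN7 shares 10.8% with RP1-4G17.5. CLDN12 shares exon bases on its own strand with GTPBP10, CDK14, CTB-13L3.1 and AC006153.3, and how reads in shared bases were assigned is not given in the sources used here. CLDN1, CLDN3, CLDN4, MARVELD2, OCLN and TJP1 share no exon base with another gene of these models. The pseudogene OCLNP1 had at most 3.44% of the count of OCLN in the knockout table.

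The letters CAGGTG, the E-box that repressors such as SNAI2 and ZEB2 are known to bind, were searched on both strands of RefSeq promoters (GRCh38.p14, 250 bases before to 50 after each start). They were present in 5 of 13 promoters of 8 members, and in 20.6% of 35116 promoters in all. F11R had no entry. The members with the letters were CLDN3, CLDN7, OCLN and TJP1, and 1 window of 30 bases is shown for each, 5′ to 3′ on the gene's strand, with the motif in capitals, so that the sequence can be read beside the different responses of these 4 genes below.
CLDN3 (chr7:73770221-73770250, minus strand): cccacaaagccacaggCAGGTGcaggcgca
CLDN7 (chr17:7262596-7262625, minus strand): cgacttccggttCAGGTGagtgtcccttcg
OCLN (chr5:69492502-69492531, plus strand): ccatccgagtttCAGGTGaattggtcaccg
TJP1 (chr15:29969120-29969149, minus strand): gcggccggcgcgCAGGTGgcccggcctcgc
The windows of CLDN3, CLDN7 and OCLN overlap exons of the tables' gene models and that of TJP1 does not. CACGTG, the E-box that MYC and MAX are known to bind, was in 0 of the 13 promoters (7.26% of all), and AACCGGTT, a sequence that grainyhead-like factors are known to bind, was in 0 (0.134% of all). CLDN1, CLDN4, CLDN12 and MARVELD2 held none of the 3 motifs in these windows.

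Per kilobase of exon, F11R had the highest level of the 9 in every group of the knockout and overexpression tables, at 76.6 CPM per kb in WT1 (76.3 to 77.1, 3 libraries) and 33.3 in Vector (33.0 to 33.6). CLDN1 followed at 50.9 in WT1 and 27.5 in Vector, and CLDN7 at 26.4 and 11.4. CLDN3 was the lowest member in all 10 groups, at 0.443 CPM per kb in WT1, 0.145 in Vector and 0.292 in siNC. In siNC the order began with CLDN1 (20.9, from 20 to 21.9), just above F11R (18.8, from 18.4 to 19.6) with no overlap of the 3 libraries. RP11-544M22.13, which shares exon bases with F11R, had 58.1% to 73.9% of its count in the knockdown table. How shared reads were assigned is not given, so this narrow order is uncertain. The order below CLDN7 differed between tables: CLDN4 stood above TJP1 and CLDN12 in WT1 (17.5) and below TJP1, CLDN12 and OCLN in Vector (2.51) and siNC (2.04). TJP1 and CLDN12 did not differ beyond their spread in Vector (both 6.92, with ranges of 6.77 to 7.09 and 6.74 to 7.26). In WT1, MARVELD2 (4.77) lay above OCLN (2.66), and in siNC OCLN (2.62) lay above MARVELD2 (1.25). These lengths come from the gene models of the overexpression table and were used for all 3 tables.

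**Figure D1:**
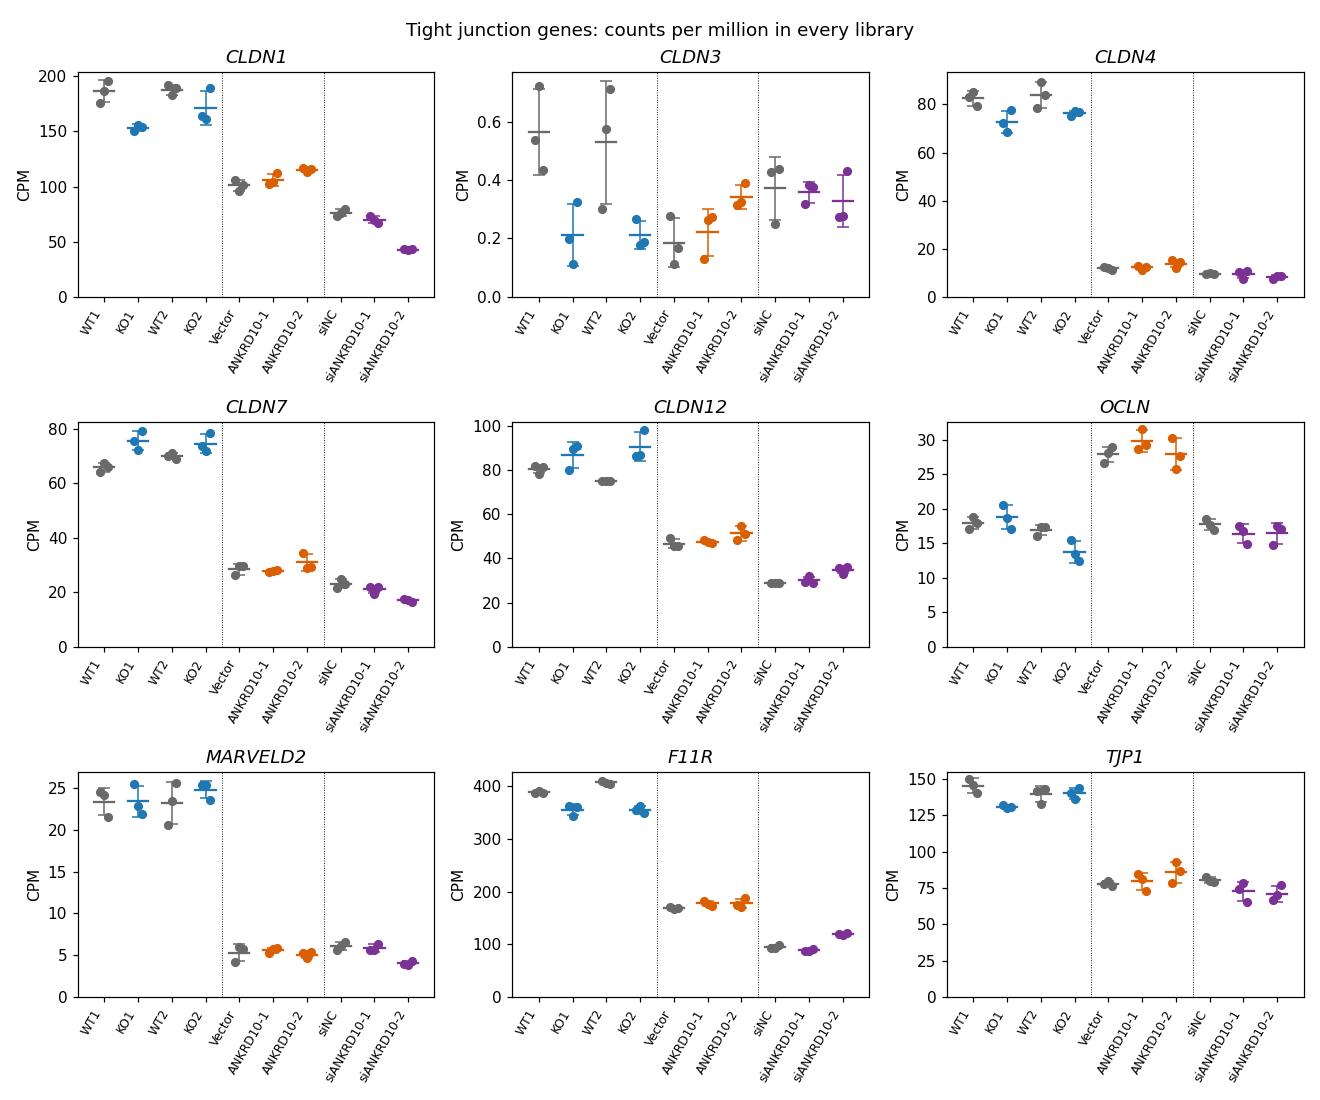
CPM of the 9 genes (vertical axes, from 0) in each of the 30 libraries (points), by group (horizontal axes), with the mean and SD of 3 libraries. Dotted lines part the 3 tables, between which levels were not tested. CLDN1 in siANKRD10-2 sits between 42.3 and 43.2 CPM, below all 3 siNC libraries (73.4 to 80.0).

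Most members changed in siANKRD10-2 cells, and there they moved in both directions. CLDN1, CLDN7, MARVELD2 and TJP1 were lower than in siNC and CLDN12 and F11R were higher, so that 6 of 9 members passed an edgeR adjusted p of 0.05, where 36.3% of all 18924 genes tested did. The 3 libraries of each group did not overlap for 7 members (46.5% of all genes). In siANKRD10-1 cells 0 of 9 passed, with 2 at an unadjusted p under 0.05 and 0 by DESeq2 (10.6% of all genes called), and the groups did not overlap for 3 (28.3%). Compared directly, siANKRD10-2 and siANKRD10-1 differed for 5 of 9 members (37% of all genes): CLDN1, CLDN7 and MARVELD2 were lower and CLDN12 and F11R higher with siANKRD10-2. Both siRNA groups were set against the same 3 siNC libraries.

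Fewer members passed in the knockouts, with log2 fold changes from −0.29 to 0.28 among those that did. In KO1, 5 of 9 passed (36.1% of all genes), with CLDN7 higher and CLDN1, CLDN4, F11R and TJP1 lower, and in KO2 3 of 9 passed (38.5%), with CLDN12 higher and OCLN and F11R lower. The groups did not overlap for 6 members in KO1 (48.5% of all genes) and for 6 in KO2 (49.3%). F11R passed in both. With 1 library left out at a time, the count ranged from 1 to 4 in KO1 (1 without WT1 replicate 1) and from 2 to 5 in KO2 (5 without WT2 replicate 1). Overexpression of ANKRD10-1 gave 0 of 9 by edgeR, 0 at an unadjusted p under 0.05 and 0 by DESeq2 (6.31% of all genes called), and 1 member did not overlap with Vector (25.5%). ANKRD10-2 gave 1 of 9, CLDN1 (19.9% of all genes called), with 0 to 3 when 1 library was left out (0 without Vector replicate 2, 3 without ANKRD10-2 replicate 1), and 2 members did not overlap (36.2%). Where a log2 fold change of 1 or more in either direction was required as well, 0 of 9 members passed in each of these 6 comparisons, and of all genes 6.43% passed in KO1, 5.99% in KO2, 0.391% in ANKRD10-1, 1.19% in ANKRD10-2, 0.367% in siANKRD10-1 and 2.64% in siANKRD10-2.

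**Figure D2:**
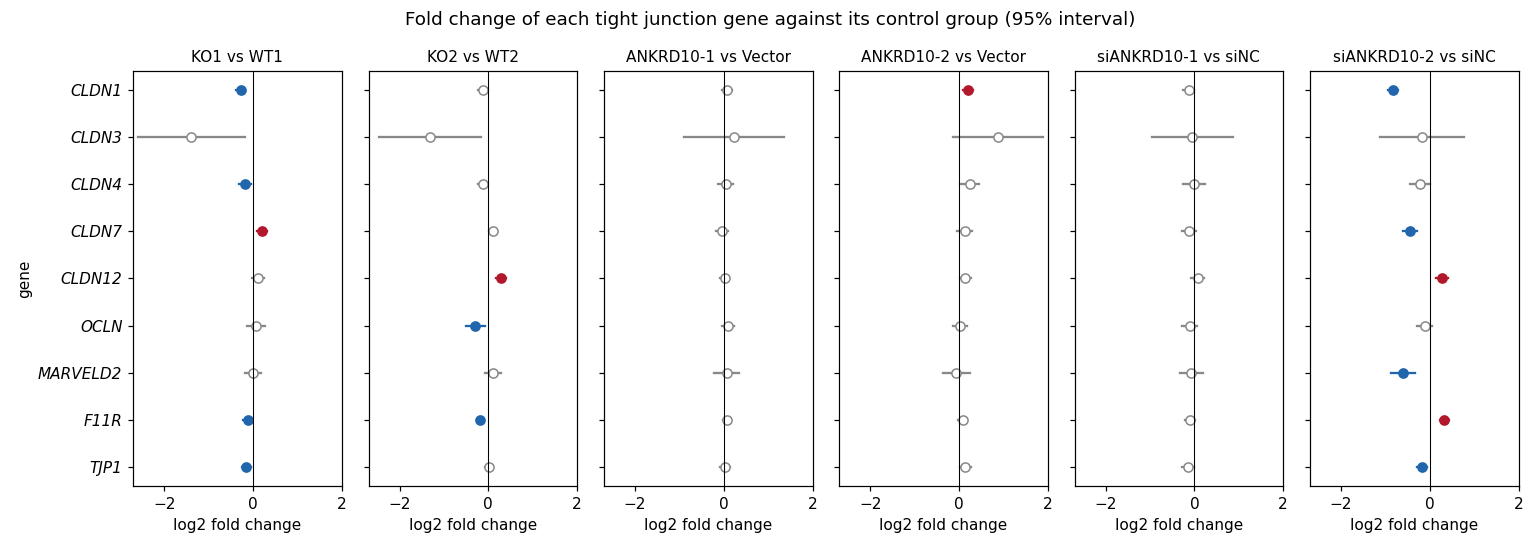
Log2 fold change of each gene (vertical axis) against its own control group (horizontal axis) in 6 comparisons, with 95% intervals. Red points were higher and blue points lower at an edgeR adjusted p under 0.05, and open points did not pass. CLDN1 in siANKRD10-2 lies farthest from 0 among the genes that passed, at −0.83, and the intervals of CLDN3 are the widest.

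CLDN1 is a sealing claudin on which the barrier of stratified epithelia depends. It was at 73.4, 75.7 and 80.0 CPM in siNC, at 73.0, 69.7 and 66.7 CPM in siANKRD10-1 and at 43.0, 42.3 and 43.2 CPM in siANKRD10-2. The siANKRD10-2 libraries lay close together and far below both other groups. The fall was −0.83 (SE 0.057, edgeR adjusted p = 1.89e-11), which leaves 0.562 of the siNC level, and against siANKRD10-1 it was −0.70 (SE 0.058, edgeR adjusted p = 3.47e-09). For siANKRD10-1 the change was −0.13 (95% interval −0.25 to 0.00, edgeR adjusted p = 0.186).
CLDN1 was at 176, 187 and 196 CPM in WT1 and at 150, 156 and 154 CPM in KO1, with no overlap (−0.28, SE 0.051, edgeR adjusted p = 0.00138). In KO2 the libraries at 164, 161 and 189 CPM reached into the range of WT2 (192, 183 and 189 CPM), and the change of −0.12 (SE 0.05) did not pass (edgeR adjusted p = 0.0733). Without KO2 replicate 3, the highest of these libraries, it was −0.19 and passed (adjusted p = 0.00436). In the overexpression table CLDN1 was at 106, 95.9 and 101 CPM in Vector, at 102, 104 and 112 CPM in ANKRD10-1 and at 117, 113 and 116 CPM in ANKRD10-2. Only the last group lay above all Vector libraries and passed (0.20, SE 0.051, edgeR adjusted p = 0.0139). That call was lost without Vector replicate 2 (0.16, adjusted p = 0.071), and the direct comparison of ANKRD10-2 with ANKRD10-1 gave 0.13 (edgeR adjusted p = 0.172).

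CLDN7, a claudin also found along the lateral membrane, fell in siANKRD10-2 as well, by less than CLDN1. It was at 21.6, 24.8 and 22.9 CPM in siNC, at 21.9, 19.5 and 21.9 CPM in siANKRD10-1 and at 17.7, 17.1 and 16.4 CPM in siANKRD10-2. The change was −0.44 (SE 0.078, edgeR adjusted p = 6.63e-05) against siNC and −0.30 (SE 0.079, edgeR adjusted p = 0.00397) against siANKRD10-1. The overlapping gene RP1-4G17.5 fell by 0.48 in the same comparison (edgeR adjusted p = 3.41e-05), and its count was 87.4% to 112% of that of CLDN7 in the knockdown table. With both counts summed, the change was −0.46 (edgeR adjusted p = 3.54e-06).
In KO1 CLDN7 went the other way, at 75.4, 72.2 and 79.3 CPM against 64.3, 67.5 and 65.9 CPM in WT1. The groups did not overlap, and the rise was 0.20 (SE 0.055, edgeR adjusted p = 0.0135), which was lost without KO1 replicate 3 (0.17, adjusted p = 0.0514) or WT1 replicate 1 (0.19, adjusted p = 0.0521). In KO2 it was at 73.5, 71.7 and 78.4 CPM against 69.9, 71.0 and 68.8 CPM in WT2 (0.10, SE 0.045, edgeR adjusted p = 0.0918). WT2 itself lay above WT1 in all 3 libraries (0.08, SE 0.046, edgeR adjusted p = 0.481).

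CLDN12, a claudin without the C-terminal motif that binds the PDZ domains of scaffolds in most other claudins, rose in siANKRD10-2, where CLDN1 fell. It was at 28.8, 28.8 and 28.7 CPM in siNC, at 29.5, 32.0 and 28.8 CPM in siANKRD10-1 and at 35.5, 33.0 and 36.0 CPM in siANKRD10-2. All siANKRD10-2 libraries lay above the others (0.28, SE 0.065, edgeR adjusted p = 0.00131 against siNC, and 0.22, SE 0.068, edgeR adjusted p = 0.0149 against siANKRD10-1). The second of these was lost when any 1 of 4 libraries was left out (siANKRD10-1 replicates 1 and 3, siANKRD10-2 replicates 1 and 3), with an adjusted p of up to 0.0758. Summed with CTB-13L3.1 and AC006153.3, 2 of the genes that overlap it on its strand, the rise against siNC was 0.32 (edgeR adjusted p = 0.000288). GTPBP10 and CDK14 overlap it on that strand too and were left out of the sum. In the knockdown table they had 41.3% to 72% and 54.4% to 104% of the count of CLDN12.
In KO2 CLDN12 was at 86.4, 86.9 and 98.1 CPM against 74.9, 75.1 and 74.8 CPM in WT2 (0.28, SE 0.049, edgeR adjusted p = 0.000643). WT2 itself lay below WT1 in all 3 libraries (−0.10, SE 0.044, edgeR adjusted p = 0.335). In KO1 the range of 79.9 to 90.7 CPM overlapped with that of WT1 (78.2 to 81.6), and the change of 0.11 (SE 0.062) did not pass (edgeR adjusted p = 0.184). It passed without KO1 replicate 1 (0.18, adjusted p = 0.0393) and with all 6 WT libraries as controls (0.17, adjusted p = 0.0224).

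CLDN4, a claudin of tight epithelia, differed little from its controls. It was at 83.3, 85.2 and 79.2 CPM in WT1, at 72.2, 68.4 and 77.6 CPM in KO1, at 78.5, 89.4 and 84.1 CPM in WT2 and at 75.1, 77.1 and 76.8 CPM in KO2. Both knockouts lay below their controls in every library. The fall passed in KO1 (−0.18, SE 0.061, edgeR adjusted p = 0.0402) and not in KO2 (−0.13, SE 0.053, edgeR adjusted p = 0.076). The call in KO1 was lost without KO1 replicate 1 or 2 or WT1 replicate 1 or 2 (adjusted p up to 0.152), and in KO2 the change passed without WT2 replicate 1 (−0.18, adjusted p = 0.02). In siANKRD10-2 it was at 7.26, 8.66 and 8.76 CPM against 9.57, 9.92 and 9.29 CPM in siNC (−0.22, SE 0.11, edgeR adjusted p = 0.109). Its neighbour CLDN3, a sealing claudin, had too few counts for a close estimate. CLDN3 was at 0.537, 0.723 and 0.433 CPM in WT1 and at 0.198, 0.113 and 0.325 CPM in KO1, and at 0.300, 0.574 and 0.712 CPM in WT2 against 0.265, 0.177 and 0.189 CPM in KO2. All knockout libraries lay below their own controls, but neither change passed (−1.39, SE 0.54, edgeR adjusted p = 0.0683 in KO1, and −1.31, SE 0.53, edgeR adjusted p = 0.07 in KO2). With all 6 WT libraries as controls both did, at −1.34 (adjusted p = 0.033) and −1.36 (adjusted p = 0.0205).

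As a share of the summed CPM per kb of the 5 claudins, CLDN1 made up 56.8% in siNC (55.6% to 58.1%), 55.5% in siANKRD10-1 (53.9% to 56.7%) and 45.5% in siANKRD10-2 (45.3% to 45.6%). CLDN12 went from 11.6% (11.3% to 12.1%) in siNC to 20.1% (19.2% to 20.6%) in siANKRD10-2, while CLDN7 was at 25.2% and 26.6% with overlapping ranges. CLDN1 made up 47.4% in WT1 and 41.6% in KO1, and 47.2% in WT2 and 43.9% in KO2, with no overlap between a knockout and its controls. CLDN7 took 24.7% in WT1 and 30.2% in KO1. In the Vector, ANKRD10-1 and ANKRD10-2 groups CLDN1 made up 56.7%, 58.0% and 57.5%, with overlapping ranges. CLDN4 took 16.4% in WT1 and 5.17% in Vector, a difference between tables that was not tested.

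**Figure D3:**
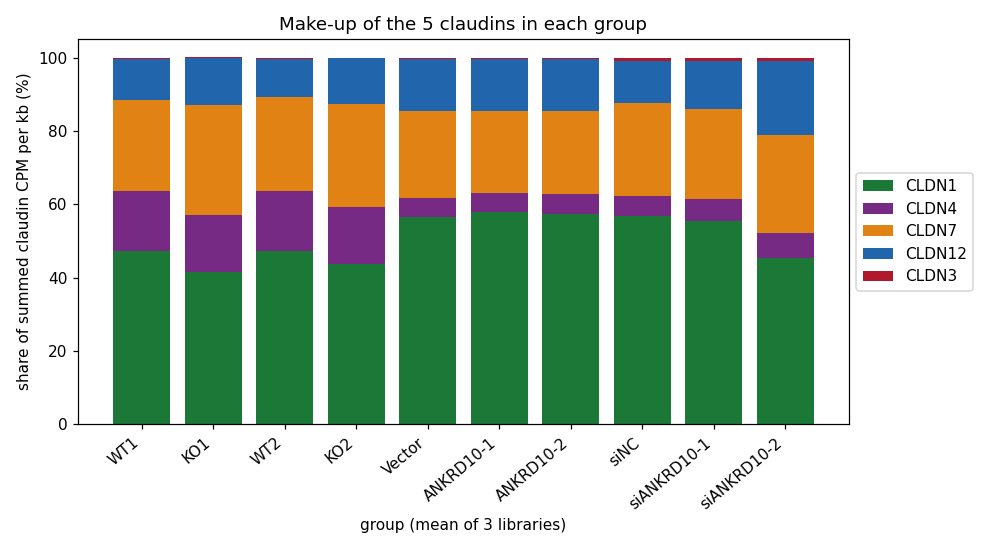
Share of each of the 5 claudins in their summed CPM per kb (vertical axis, percent, stacked from 0) in each group (horizontal axis, mean of 3 libraries). The green part, CLDN1, shrinks from 56.8% in siNC to 45.5% in siANKRD10-2, and the blue part, CLDN12, grows from 11.6% to 20.1%.

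The calls of the MARVEL proteins were in different comparisons, and their responses were not tested against each other. MARVELD2, the protein of tricellular contacts, was at 5.67, 6.14 and 6.62 CPM in siNC, at 5.58, 5.61 and 6.40 CPM in siANKRD10-1 and at 3.90, 3.89 and 4.32 CPM in siANKRD10-2. The siANKRD10-2 libraries did not overlap with the others (−0.60, SE 0.13, edgeR adjusted p = 0.00079 against siNC, and −0.53, SE 0.13, edgeR adjusted p = 0.00329 against siANKRD10-1). In the knockouts it overlapped with the controls, with a change of 0.01 in KO1 (95% interval −0.18 to 0.19) and 0.10 in KO2 (−0.08 to 0.28). OCLN, which takes part in organising the junction strands, was at 16.1, 17.4 and 17.4 CPM in WT2 and at 15.5, 13.4 and 12.4 CPM in KO2, with no overlap (−0.29, SE 0.098, edgeR adjusted p = 0.0369). The call was lost without KO2 replicate 2 or 3 or WT2 replicate 2 or 3 (adjusted p up to 0.14), and with no filter on low counts (adjusted p = 0.0605). In KO1 OCLN was at 20.6, 18.7 and 17.1 CPM against 17.1, 18.8 and 18 CPM in WT1 (0.07, 95% interval −0.13 to 0.26). In siANKRD10-2 its libraries at 14.7, 17.5 and 17.1 CPM overlapped with siNC (18.5, 17.7 and 17.0 CPM), with a change of −0.11 (95% interval −0.28 to 0.06).

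F11R, the adhesion molecule, fell in both knockouts and rose with siANKRD10-2. It was at 386, 391 and 387 CPM in WT1 against 362, 343 and 360 CPM in KO1, and at 410, 406 and 404 CPM in WT2 against 354, 362 and 348 CPM in KO2. No knockout library reached the range of the controls. The fall was −0.19 in KO2 (SE 0.033, edgeR adjusted p = 0.000722) and −0.12 in KO1 (SE 0.042, edgeR adjusted p = 0.0389), where leaving out any 1 of the 6 libraries ended the call (adjusted p from 0.0531 to 0.144), as did testing without a filter on low counts (0.0705). In the knockdown table F11R was at 93.5, 93.3 and 99.5 CPM in siNC, at 88.0, 87.4 and 90.3 CPM in siANKRD10-1 and at 120, 117 and 122 CPM in siANKRD10-2. The siANKRD10-2 libraries were the highest (0.33, SE 0.054, edgeR adjusted p = 2.35e-05 against siNC, and 0.44, SE 0.053, edgeR adjusted p = 7.93e-07 against siANKRD10-1). Its overlapping gene RP11-544M22.13 rose by more (0.57, SE 0.057, edgeR adjusted p = 1.56e-08), and with both counts summed the rise was 0.42 (edgeR adjusted p = 3.94e-07). The 2 genes share exon bases, so how far the rise belongs to F11R alone cannot be told from these counts. With it, F11R (23.7 CPM per kb) stood above CLDN1 (11.7) in siANKRD10-2, the reverse of their order in siNC.

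TJP1, the scaffold, was at 150, 146 and 140 CPM in WT1 and at 132, 130 and 131 CPM in KO1 (−0.15, SE 0.048, edgeR adjusted p = 0.0331), with no overlap. The call was lost when any 1 of the KO1 libraries, WT1 replicate 1 or WT1 replicate 2 was left out (adjusted p up to 0.135). In KO2 it was at 140, 136 and 144 CPM against 142, 133 and 143 CPM in WT2, within the spread of the libraries (0.02, 95% interval −0.07 to 0.10). It was at 82.5, 80.1 and 78.9 CPM in siNC, at 74.0, 78.6 and 65.5 CPM in siANKRD10-1 and at 66.4, 69.9 and 77.0 CPM in siANKRD10-2. Both siRNA groups lay below siNC in every library, and the siANKRD10-2 change passed (−0.18, SE 0.059, edgeR adjusted p = 0.0195) while the siANKRD10-1 change did not (−0.15, SE 0.065, edgeR adjusted p = 0.16). The siRNAs did not differ from each other beyond the spread (−0.03, 95% interval −0.17 to 0.11), and the siANKRD10-2 call was lost without siANKRD10-2 replicate 1 or 2 or siNC replicate 1 or 2 (adjusted p up to 0.141).

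Whether the 2 knockouts differed in their effect was tested over all 12 libraries of the knockout table. 0 of 9 members passed by edgeR, with 4 at an unadjusted p under 0.05 and 1, TJP1, by DESeq2 (23.3% of all genes called by edgeR). TJP1 had a difference of −0.17 (SE 0.059, edgeR adjusted p = 0.0532), and OCLN one of 0.35 (SE 0.13, edgeR adjusted p = 0.0707). For CLDN1 the difference was −0.16 (95% interval −0.32 to 0.00), and for F11R 0.06 (−0.04 to 0.16). WT2 and WT1 differed for 0 of 9 members by edgeR, with 1 at an unadjusted p under 0.05 and 0 by DESeq2 (1.23% of all genes called). ANKRD10-2 and ANKRD10-1 differed for 0 of 9 by edgeR, with 2 at an unadjusted p under 0.05 and 0 by DESeq2 (7.26% of all genes called).

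Of 62 other genes of the junction (other claudins, membrane and adhesion proteins, scaffolds, polarity proteins and signalling partners), 42 were tested in KO1, and 5 were higher and 20 lower, with a median log2 fold change of −0.27 against 0.00 over all genes. Of all genes tested, 17.9% were higher and 18.2% lower. In KO2, 9 were higher and 14 lower of 43 (median −0.06 against −0.02), with 19.3% and 19.2% of all genes. CLMP, an adhesion protein related to CXADR, rose in both knockouts: it was at 10.9, 9.21 and 9.23 CPM in WT1 and at 30.9, 30.9 and 28.1 CPM in KO1 (1.62, SE 0.093, edgeR adjusted p = 4.73e-07), and by 1.67 (SE 0.069, edgeR adjusted p = 4.7e-09) in KO2. Of the scaffold genes, 7 of 13 were lower and 0 higher in KO1, and 8 of 13 were lower and 2 higher in KO2. Among them CGNL1 (paracingulin) fell by 0.98 in KO1 and 1.46 in KO2, and MAGI2 by 1.29 and 1.04, from a low level of 0.927 to 2.09 CPM in WT1. TJP3 (ZO-3) fell by 1.99 in KO1 and 1.30 in KO2, also from a low level. Its mean was 0.925 CPM in WT1 and 0.233 CPM in KO1, below the level asked of named genes. BVES, a membrane protein of cell contacts, fell by 0.86 and 1.22.
CRB3, the apical polarity protein that recruits junction scaffolds, was nearly absent in 1 knockout. It had 311, 271 and 318 counts in WT1 and 0, 6 and 4 in KO1 (−6.32, SE 0.52, edgeR adjusted p = 6.27e-06), while KO2 had 331, 261 and 308 counts against 326, 288 and 354 in WT2. The KO1 libraries lay far below all others. ARHGEF18, an exchange factor for RhoA at the junction, fell by 1.05 in KO1, and CLDN23 rose by 0.70 there. AMOTL2, an angiomotin-like scaffold, rose by 0.61 in KO2 and fell by 0.29 in KO1. Each of these had an edgeR adjusted p under 0.05. The controls of AMOTL2 differed as well, with WT2 below WT1 (−0.31, SE 0.066, edgeR adjusted p = 0.0429).

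In siANKRD10-2, 13 of 42 other junction genes were higher and 8 lower (median 0.10, with 17.6% and 18.7% of all genes), and in siANKRD10-1 3 of 43 were higher and 7 lower (median −0.01, with 5.08% and 5.52% of all genes). With siANKRD10-2 the scaffolds were mostly higher, with 7 of 13 higher and 1 lower, and CGNL1 rose from 16.1, 14.6 and 13.1 CPM in siNC to 20.7, 21.1 and 20.2 CPM (0.50, SE 0.083, edgeR adjusted p = 3e-05). MARVELD3, the third junction protein of the MARVEL family, rose where MARVELD2 fell, from 39.2, 38.2 and 36.0 CPM to 59.4, 63.6 and 54.9 CPM (0.65, SE 0.063, edgeR adjusted p = 8.94e-09). ILDR2, an angulin of tricellular contacts, rose by 1.05 and CRB3 by 0.50. PRKCI, the atypical protein kinase C of the polarity complex, fell from 85.3, 78.2 and 78.8 CPM to 46.8, 50.8 and 55.2 CPM (−0.66, SE 0.063, edgeR adjusted p = 5.11e-09). BVES fell by 1.09 and YBX3 (ZONAB), a Y-box factor that binds the scaffold TJP1, by 0.45. In siANKRD10-1, CLMP rose by 0.46 and MARVELD3 by 0.27, and TJP3 fell by 1.21, CGNL1 by 0.42, BVES by 0.40 and CXADR by 0.35. CGNL1 thus changed in opposite directions with the 2 siRNAs against the same controls.
With ANKRD10-1, 4 of 50 other junction genes were higher and 2 lower (median −0.05, with 3.5% and 2.81% of all genes), and with ANKRD10-2 10 were higher and 2 lower (median −0.02, with 10.7% and 9.25% of all genes). AMOTL2 rose by 0.27 and 0.42 in these groups, MPDZ, a scaffold with many PDZ domains, fell by 0.22 and 0.32, and ARHGEF2 rose by 0.32 and 0.29 and RAB13 by 0.20 and 0.32. PATJ fell by 0.16 with ANKRD10-1, and ARHGEF11 by 0.28 with ANKRD10-2.

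**Figure D4:**
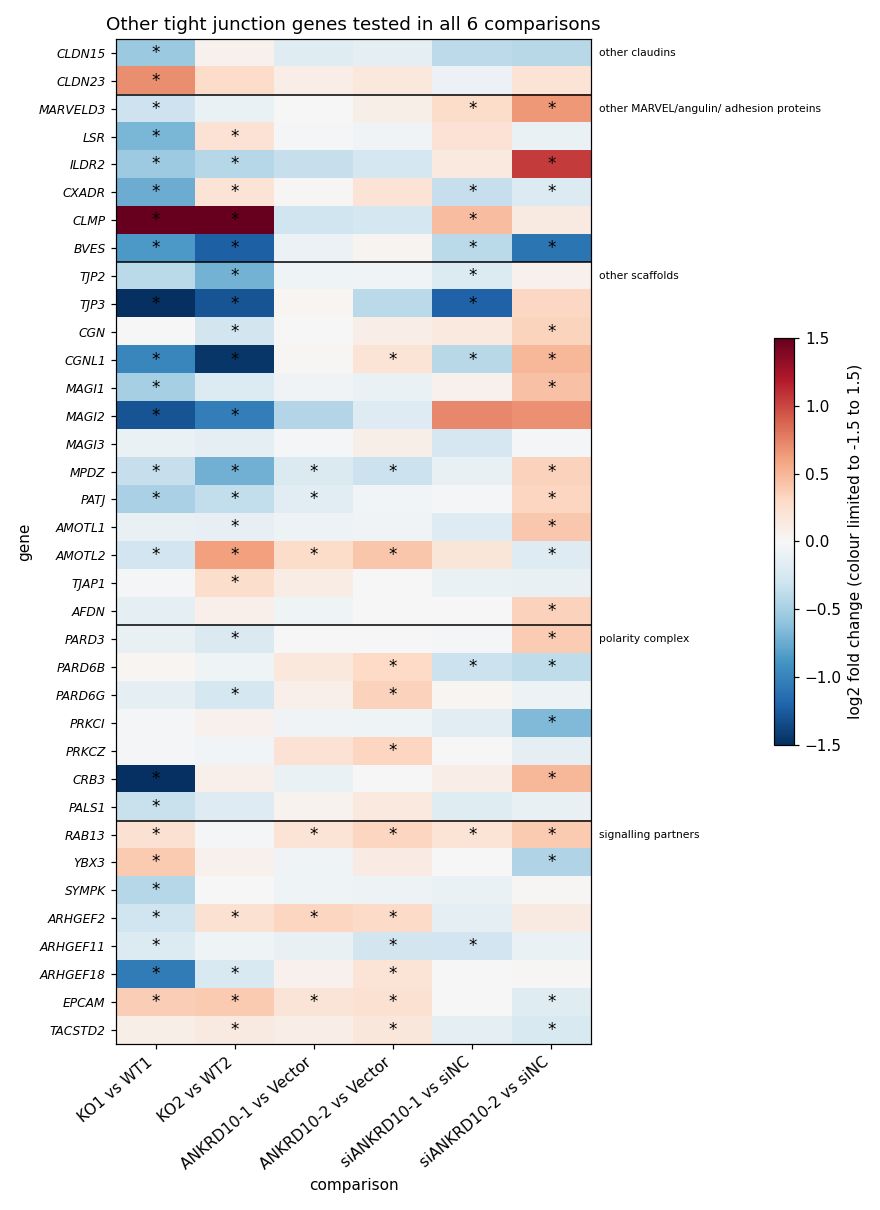
Log2 fold changes (colour, limited to −1.5 to 1.5) of the 36 other junction genes tested in all 6 comparisons with a control group (columns), by list (rows between black lines). Asterisks mark an edgeR adjusted p under 0.05. CLMP is higher in both knockouts (1.62 and 1.67), and CRB3 is marked as lower in KO1 alone of the 2.

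Transcription factors with known roles at epithelial junction genes were listed apart, and 8 of 9 were tested in each comparison. Of these 8, 2 were higher and 2 lower in KO1 (17.9% and 18.2% of all genes) and likewise in KO2 (19.3% and 19.2%). With ANKRD10-1, 1 was higher and 1 lower (3.5% and 2.81%), and with ANKRD10-2 3 and 1 (10.7% and 9.25%). With siANKRD10-1, 0 were higher and 1 lower (5.08% and 5.52%), and with siANKRD10-2 0 and 2 (17.6% and 18.7%). SNAI2, a repressor, rose by 0.55 in KO1 and by 0.36 with ANKRD10-1, and it fell by 0.43 in siANKRD10-2. With ANKRD10-2 it rose from 78.4, 73.8 and 79.6 CPM in Vector to 137, 139 and 140 CPM (0.85, SE 0.048, edgeR adjusted p = 3.23e-08). Its change in KO2 was 0.02 (edgeR adjusted p = 0.803), and WT2 lay above WT1 by 0.48 (SE 0.05, edgeR adjusted p = 0.000719). ZEB2, another repressor, rose by 0.54 in KO1 and 0.71 in KO2 and fell by 0.35 with ANKRD10-1. OVOL1, a factor of the epithelial state, rose by 1.2 in KO2 and 1.04 with ANKRD10-2, and OVOL2 by 0.37 with the latter. GRHL1 fell by 0.20 with ANKRD10-2 and by 0.60 in KO2. GRHL2, an activator of epithelial junction genes, fell by 0.27 in KO1 and 0.29 in KO2, OVOL2 fell by 0.51 in KO1, and GRHL3 fell by 1.63 with siANKRD10-1 and 1.32 with siANKRD10-2. Each of these changes had an edgeR adjusted p under 0.05, and those of GRHL1 in KO2, OVOL2 in KO1, GRHL2 and GRHL3 were chosen after their values were seen. GRHL3 had a low level in both siRNA comparisons, below the mean of 1 CPM asked of named genes.
The epithelial markers, of which EPCAM is also counted among the signalling partners above, shifted in the knockdown table. In siANKRD10-2, 8 of 8 were lower than in siNC (median −0.68, from −1.06 to −0.18), and their summed level was 3230 to 3380 CPM against 5310 to 5620 in siNC. In siANKRD10-1, 5 of 8 were lower and 0 higher (median −0.29), with a sum of 4420 to 4710 CPM. Of all genes, 18.7% were lower in siANKRD10-2 and 5.52% in siANKRD10-1. In KO1, 3 were higher and 1 lower of 8 (17.9% and 18.2% of all genes), and in KO2 3 and 3 (19.3% and 19.2%). KRT13, a keratin of stratified epithelia chosen after its values were seen, changed the most of the 8 in both, by −2.65 in KO1 (SE 0.069, edgeR adjusted p = 2.9e-09) and −4.64 in KO2 (SE 0.095, edgeR adjusted p = 2.22e-11), with WT2 above WT1 by 0.45 (edgeR adjusted p = 0.000717). With ANKRD10-1, 4 were higher and 0 lower (3.5% and 2.81% of all genes), and with ANKRD10-2 5 and 1 (10.7% and 9.25%). The 11 markers of other cell types summed to 46.6 to 48.1 CPM in siANKRD10-2 and 50 to 51 in siNC, with CD3E at 0 in all 3 groups of that table and PTPRC at 0 in siNC. They summed to 35.2 to 40.8 CPM in KO1 and 52.7 to 57.4 in WT1, most of it COL1A1. Of the 6 tested in KO1, 2 were higher and 2 lower (17.9% and 18.2% of all genes). Of the 5 tested in KO2, 2 were higher and 1 lower (19.3% and 19.2%). The part of these shifts in the results above was not tested.

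Over the 18 treated libraries, each set against the mean of its own controls, MARVELD2 went with CLDN7 (Pearson r = 0.77) and CLDN1 (0.76), and against F11R (−0.73). CLDN1 and CLDN7 had an r of 0.69, and OCLN and CLDN12 one of −0.69. The libraries of a group share their treatment, and the siRNA and overexpression groups share controls. The r values therefore describe the pattern and were not tested. Against its controls MARVELD2 passed in siANKRD10-2 alone (−0.60), and its other changes ran from −0.07 to 0.10. Its r values thus lean on that group, and r was not computed without it. In KO1 CLDN1 fell (−0.28) while CLDN7 rose (0.20). Among 13221 genes tested in all 6 comparisons, the pattern most like that of CLDN1 was that of EIF4A3 (r = 0.97), followed by DDIAS and SQLE (both 0.96). For CLDN7 it was YBX1 (0.97), followed by CCT6A and TAGLN2 (both 0.96), for MARVELD2 CSNK2A2 (0.94), and for F11R GNL1, FRMD4B and DPYSL3 (all 0.94).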

How the data were processed

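RNA was measured in 30 libraries of 5637 cells, prepared with a stranded mRNA kit. The authors deposited 3 tables of raw counts per gene, without normalization. The submitters' processing notes name Trimmomatic 0.36, featureCounts of Subread 1.5.1 and GRCh38, while the methods of the study name Cutadapt, HISAT2, StringTie and DESeq2. The Length column that the authors deposited in other units, bases of exon per gene, was used for CPM per kb. Symbols were matched by Ensembl identifier in the knockout table.

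Counts were tested in R 4.3.3 with edgeR 4.0.16 (filterByExpr with a minimum count of 10 and a minimum total of 15, TMM, quasi-likelihood F-test, two-sided), on the 2 groups compared, with p-values adjusted by Benjamini-Hochberg across every gene in the fit and a threshold of 0.05. The difference between the knockouts was fitted over 12 libraries. For groups of 3, the smallest p of an exact permutation test is 0.1. Alternatives were DESeq2 1.42.0, RLE factors, no filter, all libraries of a table, 6 WT libraries, a replicate block, a fold rule and each library left out. Sums with overlapping genes were added after the data were seen.

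The members, gene lists and tests were chosen with earlier results of these data known. Other junction genes named are up to 4 rises and 4 falls per comparison with the largest change, an adjusted p under 0.05, a mean of at least 1 CPM and groups that do not overlap. A gene named for 1 comparison may also be given for another where it does not meet this rule. Likeness is Pearson's r of log2(CPM + 1). On simulated data for KO1 against WT1 (17444 genes), 23 of 50 genes with a fold of 1.25 and 35 of 50 with a fold of 1.5 were called. At folds of 2 and 0.5, 39 and 41 of 50 were, and 15 unchanged genes were called as well. For siANKRD10-2 against siNC (18597 genes), the same 4 folds gave 20, 43, 50 and 45 of 50, with 8 unchanged genes called. For ANKRD10-1 against Vector (20166 genes), they gave 29, 44, 49 and 48 of 50, with 22 unchanged genes called.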

Additional observations from a re-analysis of the deposited data

Results flagged for a closer look

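For 13 of the 45 other genes of the junction tested, the effects of the 2 knockouts on the log2 scale differed by a test of the difference itself (KO1 against WT1 minus KO2 against WT2, edgeR adjusted p under 0.05), where 23.3% of all 19189 genes did. The difference was −6.41 for CRB3 (SE 0.5, edgeR adjusted p = 1.39e-07), which fell in KO1 and changed by 0.08 in KO2. It was −2.60 for ILDR1, −0.94 for CXADR, −0.91 for AMOTL2, −0.90 for LSR and −0.53 for ARHGEF2. These had fitted changes of opposite signs in the 2 knockouts. So did AFDN (−0.13 in KO1 and 0.08 in KO2) and RAB13 (0.23 and −0.03). ILDR1 was at a low level, with group means of 0.181 to 0.812 CPM in the knockout table. Its change in KO1 did not pass (−1.31, SE 0.56, edgeR adjusted p = 0.0924). For AMOTL2 the controls differed too, with WT2 below WT1 (−0.31, edgeR adjusted p = 0.0429). CXADR, a virus receptor and adhesion protein of the junction, changed by −0.74 in KO1 and 0.20 in KO2, and LSR, an angulin of tricellular contacts, by −0.68 and 0.22. ARHGEF18 had a difference of −0.83, SYMPK of −0.43 and AFDN of −0.21. The difference was 0.36 for BVES and 0.36 for MPDZ, which fell by more in KO2 than in KO1, 0.33 for YBX3 and 0.26 for RAB13. None of the 9 members was among these genes by edgeR, and DESeq2 called 1, TJP1.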

How the results depend on the processing

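The calls of CLDN1, CLDN7, MARVELD2, F11R and CLDN12 in siANKRD10-2 against siNC held under all 11 alternatives that refit the test on the counts of single genes, as did those of CLDN1, CLDN7, MARVELD2 and F11R in siANKRD10-2 against siANKRD10-1, and CLDN1 in KO1 and F11R and CLDN12 in KO2 under 12. The other 8 member calls had edgeR adjusted p-values of 0.0135 to 0.0402 and were lost without at least 1 library, as the report names them. RLE factors or DESeq2 left the number of members called as it was in 9 of the 10 comparisons, and gave 1 instead of 0 for the difference between the knockouts (TJP1, −0.17). Members called in KO1 fell from 5 to 3 with no filter on low counts, where more genes are tested, and to 3 with a replicate block. With all 6 WT libraries as controls, 5 members passed in KO2 and TJP1 changed sign there (−0.02). In KO1 these controls added calls of CLDN3 (edgeR adjusted p = 0.033) and CLDN12 (edgeR adjusted p = 0.0224). A fold rule as well as the adjusted p left 0 members in KO1, KO2, ANKRD10-2, siANKRD10-2 and siANKRD10-2 against siANKRD10-1, since each called member changed by less than that rule asks. With all 9 libraries of the overexpression table in the fit, 3 instead of 6 other junction genes passed with ANKRD10-1, and the cause was not tested. The labels give replicate numbers but no shared culture or day. Deviations of libraries with the same number had correlations of −0.08 to 0.17. With 3 libraries in a group, such values cannot show whether these libraries shared a culture or day. With that number as a block, CLDN4 (adjusted p = 0.0721) and TJP1 (0.0504) lost their calls in KO1 and CLDN1 gained one in KO2 (0.0418), 16 instead of 10 other junction genes passed in siANKRD10-1, and no other member call changed.

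With 1 library left out at a time, members called ranged from 1 to 4 in KO1 (1 without WT1 replicate 1), from 2 to 5 in KO2 (5 without WT2 replicate 1), from 0 to 3 in ANKRD10-2 (0 without Vector replicate 2, 3 without ANKRD10-2 replicate 1), from 0 to 1 in siANKRD10-1 (1 without siANKRD10-1 replicate 2), from 5 to 6 in siANKRD10-2 and from 0 to 1 for the difference between the knockouts. Other junction genes called ranged from 3 to 6 in ANKRD10-1, from 6 to 11 in ANKRD10-2 (6 without Vector replicate 1) and from 3 to 15 in siANKRD10-1 (3 without siNC replicate 2). Log2 fold changes near 0 that did not pass changed sign in these runs. The ranges for MARVELD2 were −0.05 to 0.05 in KO1, −0.08 to 0.17 in ANKRD10-1, −0.21 to 0.04 in ANKRD10-2 and −0.09 to 0.07 in WT2 against WT1. TJP1 ranged from −0.01 to 0.03 in KO2, −0.02 to 0.08 in ANKRD10-1 and −0.10 to 0.03 between the siRNAs, and OCLN from −0.05 to 0.07 in ANKRD10-2 and −0.06 to 0.08 between the siRNAs. CLDN3 ranged from −0.28 to 0.08 in siANKRD10-1, −0.52 to 0.20 for the difference between the knockouts and −0.37 to 0.19 in WT2 against WT1. CLDN4 ranged from −0.10 to 0.13 in siANKRD10-1 and −0.03 to 0.07 in WT2 against WT1, CLDN1 from −0.03 to 0.04 in the latter, and F11R from −0.03 to 0.04 between the ANKRD10 isoforms. CLDN3 had at most 0.723 CPM in a library, so a change in it was detectable only if large.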
